A study of Mus musculus with 9 samples.

Results

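The genes described here are Nog, Bmp4, Bambi, Id1, Id2, Id3, Id4, Smad6, Smad7 and Smad9, a set of 10 named by symbol among the 78275 gene IDs of the count table. They hold secreted and membrane inhibitors of bone morphogenetic protein (BMP) signalling, the Id genes that BMP signalling switches on, and the inhibitory Smads. Bmp4 is a ligand and Smad9 a signal-carrying Smad, so neither is an inhibitor. All 10 were found in the table, and 8 passed the filter on low counts and were tested; Bmp4 and Smad9 did not pass. RNA was sequenced from mouse forebrain cells that the labels call cortical progenitors and neurons. Wild-type embryos were electroporated in utero at E14.5 with a plasmid encoding mCherry and a short hairpin RNA embedded in a microRNA (shmiRNA). The hairpin was directed against the glypican Gpc4 (sh-Gpc4), against the glypican Gpc2 (sh-Gpc2), or was a scramble control (sh-NT). Cells positive for mCherry were sorted by flow cytometry 48 h later, at E16.5, so all groups share the electroporation, the reporter and the sort. Each group has 3 libraries, named here by the numbers of the count columns (1, 2 and 4 in both sh-NT and sh-Gpc2, and 1, 3 and 4 in sh-Gpc4). The labels do not say whether a group's libraries stem from different embryos or litters, so p-values measure only how these samples vary, which may be technical.

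BMPs are secreted ligands that bring type I and type II serine/threonine kinase receptors together, after which Smad1, Smad5 and Smad9 are phosphorylated, join Smad4 and enter the nucleus. Noggin (Nog) binds BMPs outside the cell and keeps them from their receptors, Bambi is a pseudoreceptor without a kinase domain, and Smad6 and Smad7 act inside the cell against activated receptors. Id proteins lack a DNA-binding region and hold E proteins away from E boxes, which in the embryonic cortex restrains neurogenic helix-loop-helix factors in progenitors. Glypicans are heparan sulfate proteoglycans of the cell surface, and heparan sulfate binds many BMPs and noggin.

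RefSeq promoter sequence (GRCm38.p6) was used for 6 of the 10 genes, namely Bmp4, Id2, Id3, Id4, Smad6 and Smad9. The promoters of the other members were not searched, so nothing is said of their elements. The 250 bases before each start were searched on both strands for GGCGCC, a GC-rich element bound by Smad1 and Smad5. The search also covered the Smad box CAGACA and the E box CANNTG, of which CACGTG is a special case. GGCGCC was found in Id4, Id2 and Smad9, and in 9.59% of 32851 promoters of the same length. CAGACA was found in none of the 6 and in 17.1% of the 32851 promoters. E boxes lay in Bmp4 (3, of which 1 is CACGTG), Id2 (1) and Smad9 (1), where 66.2% of the 32851 promoters held CANNTG and 6.02% held CACGTG. The Id2 window, however, holds 161 bases of Id2 exon in GENCODE M21, and the Id3 window lies in Id3 exon over its whole length, because that annotation starts both genes further upstream. Such a match is a description of letters and not a measured binding site. The promoters of Id4 and Smad9 are printed because they hold the Smad element outside any exon of the GENCODE M21 annotation. Capitals mark GGCGCC, which begins at position -148 in Id4 (chr13:48260866-48261115, plus strand) and at position -51 in Smad9 (chr3:54755332-54755581, plus strand), counting the base just before the start as position -1.
Id4: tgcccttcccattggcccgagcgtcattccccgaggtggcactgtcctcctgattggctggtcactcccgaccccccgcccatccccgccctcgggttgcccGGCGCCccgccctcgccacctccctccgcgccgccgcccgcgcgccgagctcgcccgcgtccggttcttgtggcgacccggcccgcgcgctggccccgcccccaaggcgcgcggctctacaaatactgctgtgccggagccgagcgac
Smad9: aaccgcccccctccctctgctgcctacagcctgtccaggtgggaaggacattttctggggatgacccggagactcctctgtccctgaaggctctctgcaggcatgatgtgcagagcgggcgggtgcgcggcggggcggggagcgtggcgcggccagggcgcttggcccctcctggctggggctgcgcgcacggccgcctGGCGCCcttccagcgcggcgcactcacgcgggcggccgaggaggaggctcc
These 2 stretches are 75.6% and 73.2% G and C. The genes they precede stood far apart in level, Id4 among the well-read genes and Smad9 at a few reads per library, as the values below show.

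Total counts ran from 48045603 to 66538437 reads per library. Neither hairpin's own target passed the threshold, although both means were lower under their hairpin: sh-NT held 176 ± 11.9 CPM of Gpc4 where sh-Gpc4 held 122 ± 19.8, and 189 ± 24.7 CPM of Gpc2 where sh-Gpc2 held 131 ± 45.6. CPM are read counts scaled to library size by TMM, given as mean ± SD with n = 3. Between sh-Gpc4 and sh-NT the edgeR adjusted p of Gpc4 was 0.488, and between sh-Gpc2 and sh-NT that of Gpc2 was 0.968. The libraries were spread mainly along a first principal component holding 71.6% of the variance of 11968 abundant genes. On it sh-Gpc4 library 3 (score 46.7), sh-Gpc2 library 4 (36.6) and sh-Gpc4 library 4 (15.8) stood apart from the other 6, at -25.8 to -5.71. Values of Nog, and of pathway genes with their lowest levels in the outermost of these, sh-Gpc4 library 3 and sh-Gpc2 library 4, are also given without both.

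Nog (ENSMUSG00000048616, protein-coding, chromosome 11, minus strand, 89300638 to 89302332, in GENCODE M21 on GRCm38) was the member that stood lowest in sh-Gpc4 relative to sh-NT. It had 1.64, 2.36 and 2.58 CPM in sh-NT libraries 1, 2 and 4 (102, 140 and 146 reads). In sh-Gpc4 libraries 1, 3 and 4 it had 0.739, 0.510 and 0.884 CPM (37, 34 and 60 reads). In sh-Gpc2 libraries 1, 2 and 4 it had 2.51, 2.18 and 0.794 CPM (142, 135 and 39 reads). Every sh-NT library thus exceeded all 3 of sh-Gpc4, while sh-Gpc2 libraries 1 and 2 lay within the sh-NT range and library 4 lay at the sh-Gpc4 level. The group means were 2.20 ± 0.492, 0.711 ± 0.188 and 1.83 ± 0.909 CPM in sh-NT, sh-Gpc4 and sh-Gpc2 (SD, n = 3 each).

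The log2 fold change of Nog in sh-Gpc4 over sh-NT was -1.62 (SE 0.40, 95% interval -2.53 to -0.72), a ratio of 0.324. It did not pass in edgeR's quasi-likelihood test after adjustment over the 27773 genes tested (adjusted p = 0.488). Nog was called by DESeq2, with an adjusted p of 0.0454, and limma voom with sample weights gave 0.0531. That was the smallest adjusted p in the limma voom fit, but it is a tied value and does not rank Nog first. Bambi and Id3 had it too, Bambi at an unadjusted limma voom p of 0.00220 where Nog had 0.00101. In that fit 9011 of 27773 genes had an unadjusted p under 0.05. The exact two-sided permutation p was 0.1, the smallest that 3 against 3 libraries allow. In sh-Gpc2 over sh-NT the log2 fold change was -0.26 (SE 0.38, 95% interval -1.11 to 0.60, edgeR adjusted p = 0.968), and it was 0.10 without sh-Gpc2 library 4. Directly between the hairpins, sh-Gpc4 over sh-Gpc2, it was -1.37 (SE 0.40, 95% interval -2.27 to -0.46, edgeR adjusted p = 0.966, exact permutation p = 0.2), with overlapping libraries.

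The 4 libraries with the lowest Nog, sh-Gpc4 libraries 3, 1 and 4 and sh-Gpc2 library 4, were also the 4 with the highest scores on the first principal component. Without sh-Gpc4 library 3 and sh-Gpc2 library 4 together, the log2 fold change of Nog in sh-Gpc4 over sh-NT was -1.43 (edgeR adjusted p = 0.153). With each library's trend on GC content removed it was -1.32 (limma adjusted p = 0.432). Weights of genes on that component went with GC content at r = -0.489 across 11259 genes, which are not independent replicates, and the exons of Nog are 56.2% G and C. Both alternatives were added after seeing the data, and the sign stayed negative in both.

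**Figure D1:**
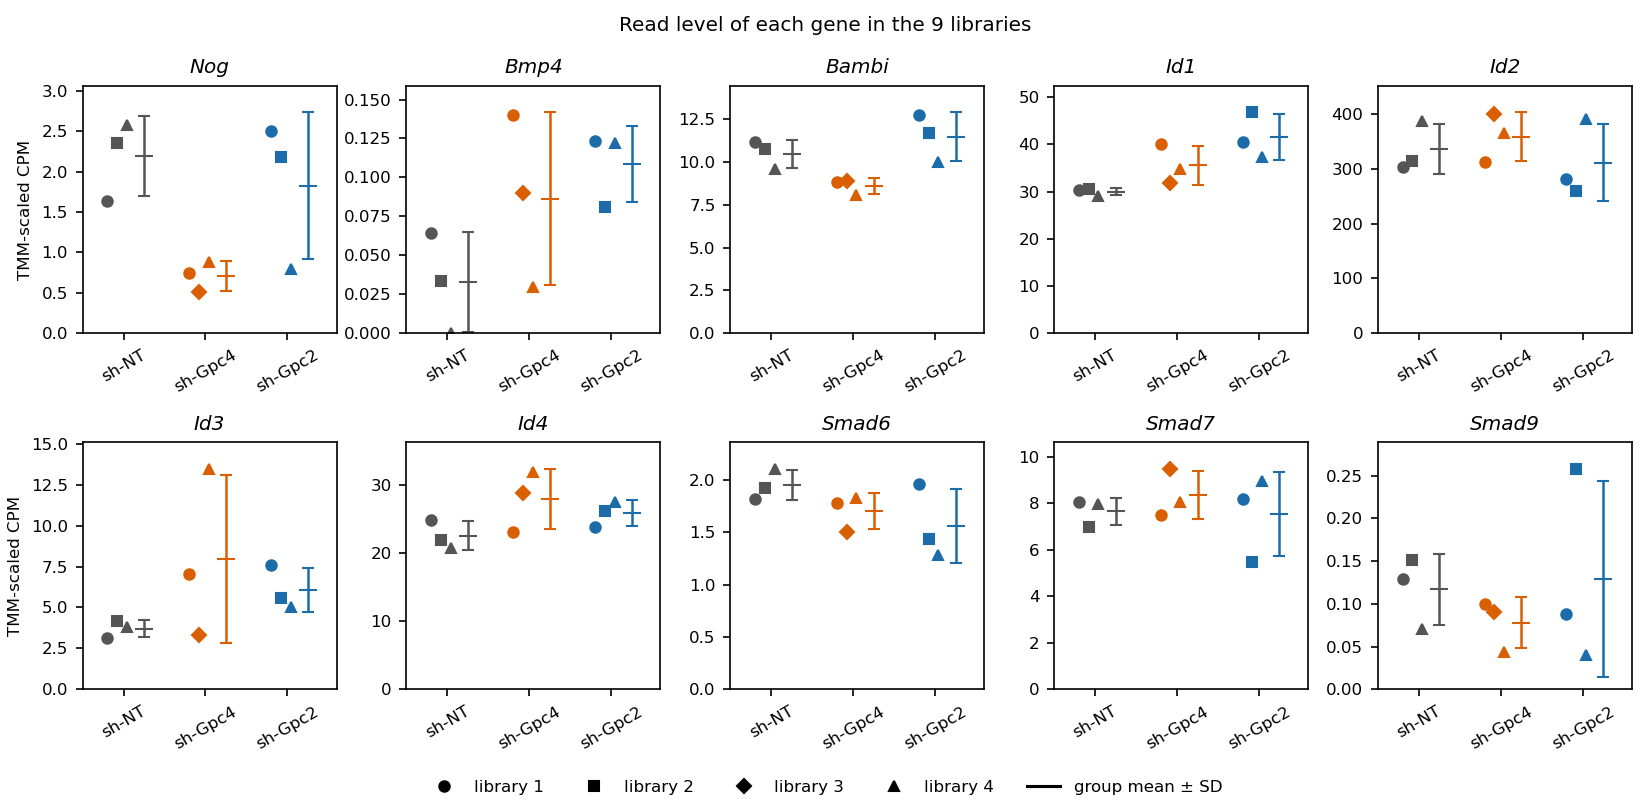
TMM-scaled CPM of each of the 10 genes (y axes from 0) in the 9 libraries, with 1 symbol per library and the group mean ± SD beside it. For Nog all 3 sh-Gpc4 libraries, at 0.510 to 0.884 CPM, lie below the sh-NT libraries at 1.64 to 2.58 CPM, and for Id1 all 6 knockdown libraries lie above sh-NT.

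The other inhibitor at the cell surface, Bambi (ENSMUSG00000024232, chromosome 18, 3507923 to 3516404, plus strand, protein-coding), differed less in size and more evenly between libraries. It was at 11.1, 10.7 and 9.57 CPM in sh-NT, at 8.85, 8.88 and 8.07 CPM in sh-Gpc4, and at 12.8, 11.7 and 9.97 CPM in sh-Gpc2, in the order of the library numbers. The sh-Gpc4 libraries lay below all 6 others. Against sh-NT the log2 fold change in sh-Gpc4 was -0.29 (SE 0.13, 95% interval -0.58 to 0.01, edgeR adjusted p = 0.488, exact permutation p = 0.1). Against sh-Gpc2 it was -0.42 (SE 0.13, 95% interval -0.71 to -0.12, edgeR adjusted p = 0.966, exact permutation p = 0.1). In sh-Gpc2 over sh-NT it was 0.13 (95% interval -0.16 to 0.42, edgeR adjusted p = 0.968), with overlapping libraries. Bambi stood at 1.24 to 2.27 times the level of Nog per kb of exon in sh-NT, at 3.05 to 5.82 times in sh-Gpc4 and at 1.70 to 4.197 times in sh-Gpc2.

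Bmp4 (ENSMUSG00000021835, chromosome 14, 46383520 to 46390669, minus strand, protein-coding), a ligand that noggin binds, was at the edge of detection. Reads numbered 4, 2 and 0 in sh-NT libraries 1, 2 and 4, then 7, 6 and 2 in sh-Gpc4 libraries 1, 3 and 4, and 7, 5 and 6 in sh-Gpc2 libraries 1, 2 and 4. The 0 in sh-NT library 4 allows up to 0.0530 CPM (3 reads, counting error only). No library exceeded 0.140 CPM. The 3 sh-Gpc2 libraries lay above all of sh-NT, and those of sh-Gpc4 overlapped it, but these differences of a few reads were not tested and no fold is given. Its exons share 89 bases with Gm15217 on the other strand, and reads of the 2 genes cannot be told apart where strand was not counted.

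Id1 (ENSMUSG00000042745, chromosome 2, 152736251 to 152737410, plus strand, protein-coding), among the most direct BMP targets, was higher on average under both hairpins than in sh-NT. It had 30.2, 30.6 and 29.2 CPM in sh-NT libraries 1, 2 and 4 (29.998 ± 0.736, SD, n = 3). In sh-Gpc4 libraries 1, 3 and 4 it had 40.1, 31.8 and 34.8 CPM (35.6 ± 4.16). In sh-Gpc2 libraries 1, 2 and 4 it had 40.5, 46.8 and 37.4 CPM (41.6 ± 4.79). All 6 knockdown libraries lay above all 3 sh-NT libraries, whose own spread was narrow. In sh-Gpc2 over sh-NT the log2 fold change was 0.47 (SE 0.12, 95% interval 0.20 to 0.74), a ratio of 1.39. It did not pass in any tool, with an exact permutation p of 0.1 and adjusted p of 0.968 (edgeR), 0.855 (DESeq2) and 0.986 (limma voom). In sh-Gpc4 over sh-NT it was 0.25 (SE 0.12, 95% interval -0.03 to 0.52, edgeR adjusted p = 0.488, exact permutation p = 0.1). That value for sh-Gpc4 was 0.15 without its library 1 and 0.45 with the GC trend removed. Both differences are measured from the same 3 sh-NT libraries. Between the hairpins, sh-Gpc4 over sh-Gpc2, it was -0.23 (95% interval -0.50 to 0.04, edgeR adjusted p = 0.966), with overlapping libraries.

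Markers of radial glia, the progenitors of the cortex, were summed per library from a list of 7 genes (Sox2, Pax6, Hes5, Slc1a3, Fabp7, Vim and Nes). The 3 libraries with the highest sums, sh-Gpc2 library 2 (2596 CPM), sh-Gpc4 library 1 (2077) and sh-Gpc2 library 1 (1995), were also the 3 with the highest Id1. The sh-NT libraries ranged from 1805 to 1945 CPM, and sh-Gpc4 library 3, with the lowest sum (1577), had the lowest Id1 of the knockdown libraries. Hes5, an effector of Notch signalling, had 834, 521 and 510 CPM in the 3 libraries with the highest sums and 148 CPM in sh-Gpc4 library 3. Without Hes5 the other 6 markers matched Id1 only in part. Their sum was highest in sh-Gpc2 library 2 (1762 CPM), the library with the highest Id1. It was lowest in sh-NT library 4 (1417), the library with the lowest Id1. The next highest sums, however, were in sh-Gpc2 library 4 (1668) and sh-NT library 2 (1579.8). The part of radial glia in the Id1 values was not tested. In bulk RNA, fewer cells of a type and less RNA per cell cannot be told apart.

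Id3 (ENSMUSG00000007872, chromosome 4, 136143497 to 136145755, plus strand, protein-coding) had the widest spread between libraries of the Id genes. It had 3.12, 4.17 and 3.803 CPM in sh-NT libraries 1, 2 and 4 (194, 247 and 215 reads). In sh-Gpc4 libraries 1, 3 and 4 it had 7.05, 3.31 and 13.5 CPM (353, 221 and 915 reads). In sh-Gpc2 libraries 1, 2 and 4 it had 7.57, 5.55 and 5.05 CPM (429, 344 and 248 reads). The sh-Gpc2 libraries all lay above sh-NT, whereas sh-Gpc4 library 3 lay within the sh-NT range and library 4 far above every other library. The log2 fold change in sh-Gpc4 over sh-NT was 1.10 (SE 0.42, 95% interval 0.17 to 2.04, edgeR adjusted p = 0.488, exact permutation p = 0.3). Leaving out sh-Gpc4 library 4 gave 0.48, and leaving out library 3 of that group gave 1.49. In sh-Gpc2 over sh-NT it was 0.71 (SE 0.42, 95% interval -0.22 to 1.65, edgeR adjusted p = 0.968, exact permutation p = 0.1). In sh-Gpc4 over sh-Gpc2 it was 0.39 (95% interval -0.53 to 1.31, edgeR adjusted p = 0.966), and -0.23 without sh-Gpc4 library 4.

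The library with the highest Id3, sh-Gpc4 library 4, also had the highest summed level of 9 microglia markers (P2ry12, Cx3cr1, C1qa, C1qb, C1qc, Csf1r, Tmem119, Ctss and Aif1), at 1771 CPM. These sums were 895, 946 and 1422 CPM in sh-NT libraries 1, 2 and 4, and 1259.9 and 1161 CPM in sh-Gpc4 libraries 1 and 3. They were 1587, 489.5 and 1589.5 CPM in sh-Gpc2 libraries 1, 2 and 4, with 8 of the 9 genes higher on average in sh-Gpc4 and 6 in sh-Gpc2 than in sh-NT. Within sh-Gpc4 the libraries had the same order in this sum and in Id3, but in sh-NT and sh-Gpc2 the orders differed. In sh-Gpc2, library 4 had the highest sum of the group and its lowest Id3 (5.05 CPM). The library with the highest Id1, sh-Gpc2 library 2, had the lowest microglia sum. The part of these cells in the Id3 values was not tested, although the sort was for mCherry.

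Id2 (ENSMUSG00000020644, chromosome 12, 25093799 to 25097140, minus strand, protein-coding), the most abundant member, showed no order of the groups. It had 304, 315 and 388 CPM in sh-NT, 312, 400 and 365 in sh-Gpc4, and 282, 260 and 391 in sh-Gpc2, in the order of the library numbers. The log2 fold change over sh-NT was 0.10 (95% interval -0.28 to 0.47, edgeR adjusted p = 0.799) in sh-Gpc4 and -0.11 (95% interval -0.49 to 0.26, edgeR adjusted p = 0.968) in sh-Gpc2. Between the hairpins it was 0.21 (95% interval -0.17 to 0.58), and the groups overlapped in each comparison.

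Id4 (ENSMUSG00000021379, chromosome 13, 48261228 to 48266026, plus strand, protein-coding), whose promoter is printed above, had 24.9, 21.99 and 20.8 CPM in sh-NT, 23.1, 28.9 and 31.9 in sh-Gpc4, and 23.8, 26.2 and 27.6 in sh-Gpc2. Each knockdown group had 1 library, its library 1, within the sh-NT range. The log2 fold change over sh-NT was 0.31 (SE 0.14, 95% interval -0.00358 to 0.62, edgeR adjusted p = 0.488) in sh-Gpc4 and 0.20 (95% interval -0.12 to 0.51, edgeR adjusted p = 0.968) in sh-Gpc2. Between the hairpins it was 0.11 (95% interval -0.20 to 0.42). Its exons share 171 bases with Gm49291 and 82 with A330033J07Rik, both on the other strand, so reads there cannot be told apart without strand.

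Compared per kb of exon, the Id genes were a family led by Id2. Summed over the 4 genes they reached 172 ± 17.8 CPM per kb in sh-NT, 190 ± 15.1 in sh-Gpc4 and 173 ± 25.3 in sh-Gpc2. Id2 made up 78.5% to 83.0% of that sum in sh-NT, 74.2% to 81.7% in sh-Gpc4 and 68.0% to 79.2% in sh-Gpc2. Id1 made up 15.2% ± 1.82, 16.3% ± 3.30 and 21.1% ± 4.94, Id4 3.46% ± 0.63, 3.82% ± 0.38 and 3.91% ± 0.41, and Id3 1.21% ± 0.19, 2.35% ± 1.46 and 1.998% ± 0.62, in the same order of groups (SD, n = 3). The highest share of Id1, 25.7%, was in sh-Gpc2 library 2. These shares describe the libraries and carry no test.

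**Figure D2:**
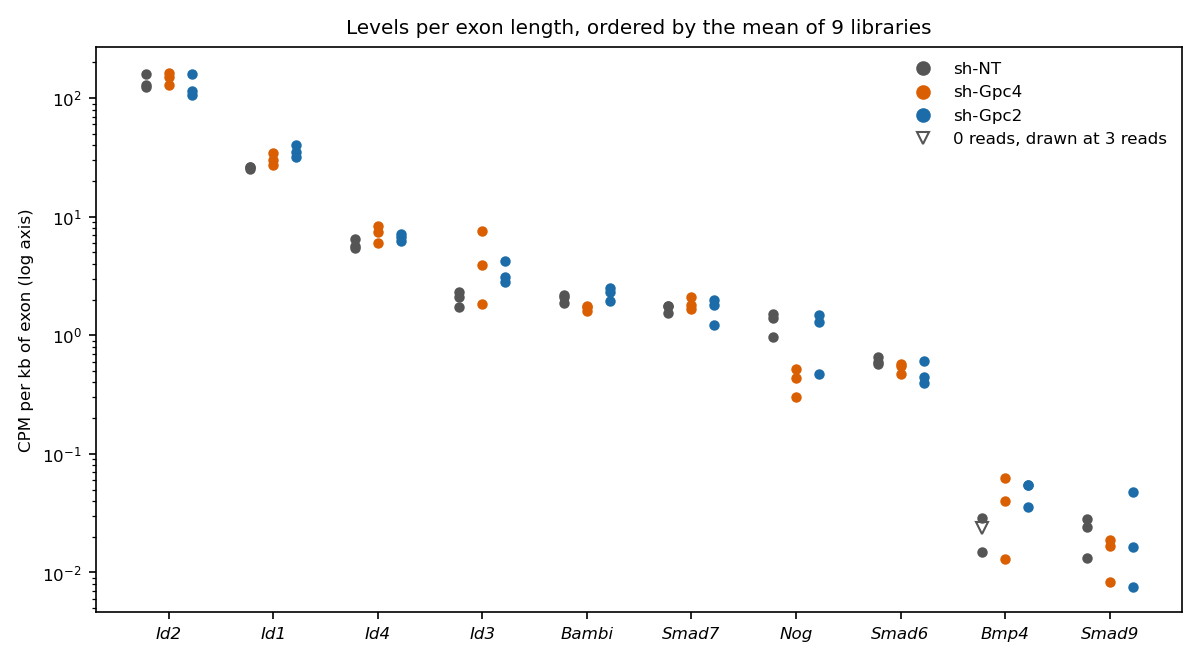
CPM per kb of exon (log axis) of the 10 genes, ordered by their mean over the 9 libraries, with 1 point per library coloured by group and an open triangle where a library had 0 reads. Id2, at 107 to 164 CPM per kb, lies above all other genes, and Bmp4 and Smad9 lie below the rest.

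Over the 9 libraries the mean level per kb of exon followed the order Id2 (137.5 CPM per kb), Id1 (30.8), Id4 (6.62), Id3 (3.29), Bambi (2.01), Smad7 (1.74), Nog (0.931), Smad6 (0.542), Bmp4 (0.0338) and Smad9 (0.0201). In sh-NT alone Smad9 (0.0218) lay above Bmp4 (0.0146) and Bambi (2.07) was level with Id3 (2.06), so the order at these places differs between groups. Id2 (107 to 164) and Id1 (25.1 to 40.3) did not overlap each other or any other gene. From Id4 down to Smad6, each gene's range over the libraries overlapped that of the next, as Id4 (5.41 to 8.29) did with Id3 (1.74 to 7.52). Smad6, with a lowest value of 0.400, lay above every library of Bmp4 and Smad9.

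The inhibitory Smads did not separate the groups. Smad6 (ENSMUSG00000036867, chromosome 9, 63953076 to 64022059, minus strand, protein-coding), which acts mainly against BMP receptors, had 1.82, 1.92 and 2.11 CPM in sh-NT, 1.78, 1.4999 and 1.83 in sh-Gpc4, and 1.96, 1.44 and 1.28 in sh-Gpc2. Its log2 fold change over sh-NT was -0.20 (SE 0.19, 95% interval -0.63 to 0.24, edgeR adjusted p = 0.634) in sh-Gpc4 and -0.32 (SE 0.19, 95% interval -0.75 to 0.12, edgeR adjusted p = 0.968) in sh-Gpc2. The second was -0.52 without sh-Gpc2 library 1 and -0.20 without sh-Gpc2 library 4. With the GC trend removed the first turned to 0.21, and the exons of Smad6 are 60.8% G and C, the highest of the members.

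Smad7 (ENSMUSG00000025880, chromosome 18, 75367529 to 75395935, plus strand, protein-coding), which acts against both TGF-beta and BMP receptors, had 8.03, 6.99 and 7.94 CPM in sh-NT, 7.47, 9.48 and 8.07 in sh-Gpc4, and 8.18, 5.49 and 8.95 in sh-Gpc2. Its log2 fold change over sh-NT was 0.12 (SE 0.19, 95% interval -0.30 to 0.55, edgeR adjusted p = 0.764) in sh-Gpc4 and -0.02 (95% interval -0.45 to 0.40, edgeR adjusted p = 0.994) in sh-Gpc2. Between the hairpins it was 0.15 for Smad7 (95% interval -0.28 to 0.57) and 0.12 for Smad6 (95% interval -0.31 to 0.56). Smad9 (ENSMUSG00000027796, chromosome 3, 54755582 to 54801257, plus strand, protein-coding), a Smad that receptors activate, had 8, 9 and 4 reads in sh-NT, 5, 6 and 3 in sh-Gpc4 and 5, 16 and 2 in sh-Gpc2. No library exceeded 0.258 CPM, and the groups overlapped.

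**Figure D3:**
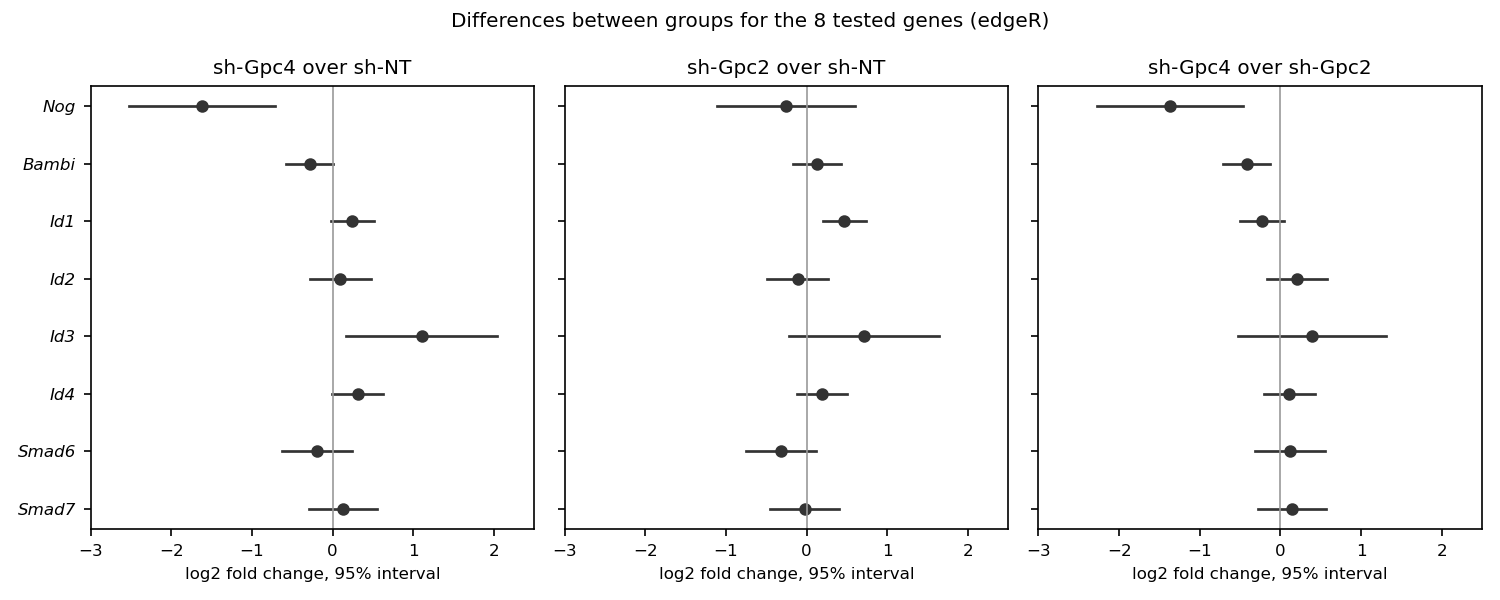
Log2 fold change (x axis) with its 95% interval for the 8 tested genes in each of the 3 comparisons, from edgeR. Intervals that leave out 0 are those of Nog and Id3 in sh-Gpc4 over sh-NT, of Id1 in sh-Gpc2 over sh-NT, and of Nog and Bambi in sh-Gpc4 over sh-Gpc2.

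Of the 8 tested members, edgeR called 0 in each comparison, and it called 0 of all 27773 genes in each (0.0% of genes tested). In sh-Gpc4 against sh-NT, 2657 of all genes (9.57%) had an unadjusted edgeR p under 0.05. Among members 1 (Id3) had such a p with a positive fold change and 1 (Nog) with a negative one. DESeq2 called 1 member there, Nog, where it called 0.165% of all genes (45 of 27228), and limma voom called 0 of all genes. In sh-Gpc2 against sh-NT, 1 member (Id1) had an unadjusted edgeR p under 0.05, beside 712 of all genes (2.56%), and DESeq2 called 0.0% of genes. In sh-Gpc4 against sh-Gpc2, 2 members (Nog and Bambi) did, beside 804 of all genes (2.89%), and DESeq2 again called 0.0% of genes. Limma voom called 0 genes in these 2 comparisons as well.

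Counted by libraries that do not overlap, sh-Gpc4 lay above sh-NT for 1 tested member (Id1) and below it for 2 (Nog and Bambi), where 10.8% of all genes lay above and 13.2% below. The share of members above was near that background. For sh-Gpc2 against sh-NT, 2 members (Id1 and Id3) lay above and 0 below, where 3.59% of all genes lay above and 4.11% below. For sh-Gpc4 against sh-Gpc2, 0 members lay above and 1 (Bambi) below, where 3.5% of all genes lay above and 2.0% below. The median log2 fold change of the tested members was 0.11, 0.05 and 0.12 in these 3 comparisons, beside 0.02, 0.00313 and -0.00237 over all genes. Positive fold changes numbered 5, 4 and 5 of 8. The first 2 comparisons share the sh-NT libraries.

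**Figure D4:**
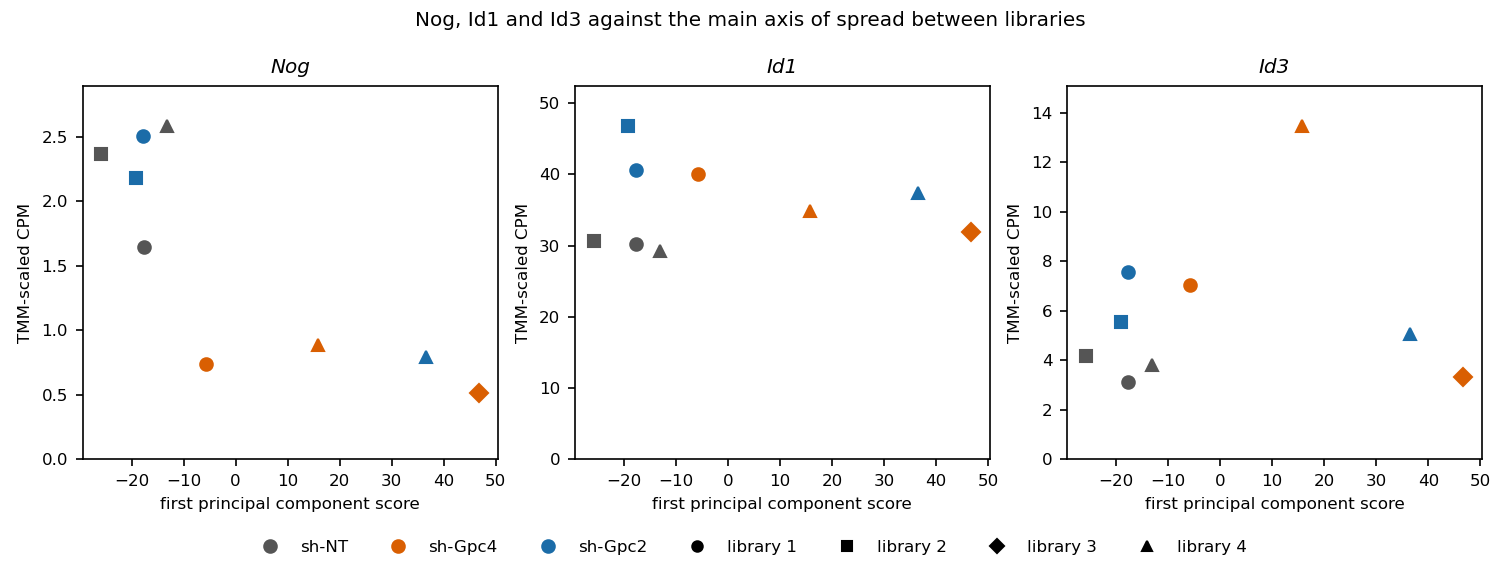
TMM-scaled CPM (y axes from 0) of Nog, Id1 and Id3 in each library against its score on the first principal component of 11968 genes, coloured by group and shaped by library number. The 4 libraries with the lowest Nog have the 4 highest scores. Id1 is higher in every knockdown library than in sh-NT, but all sh-NT libraries lie at scores of -25.8 to -13.1. Among knockdown libraries Id1 is highest at the lowest score (46.8 CPM at -19.1, sh-Gpc2 library 2). It is lowest at the highest score (31.8 CPM at 46.7, sh-Gpc4 library 3).

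Other genes of BMP and TGF-beta signalling, a list of 77 by role of which 62 were tested, gave 0 calls in edgeR and 0 in DESeq2 in each comparison. In sh-Gpc4 against sh-NT 25 were positive and 37 negative (median -0.12), with unadjusted edgeR p under 0.05 for 2 higher and 5 lower, where 9.57% of all genes had such a p and 52.8% were positive. In sh-Gpc2 against sh-NT 28 were positive and 34 negative (median -0.04), with 2 higher and 0 lower at that level. In sh-Gpc4 against sh-Gpc2 22 were positive and 40 negative (median -0.08), with 0 higher and 2 lower at that level. Of all genes 2.56% in the second comparison and 2.89% in the third had such a p, and 50.7% and 49.5% were positive. Libraries did not overlap for 6 higher and 13 lower of the 62 in sh-Gpc4 against sh-NT, where 10.8% of all genes lay above and 13.2% below. Such counts were 3 and 2 in sh-Gpc2 against sh-NT (3.59% and 4.11% of all genes). They were 3 and 4 in sh-Gpc4 against sh-Gpc2 (3.5% and 2.0%). Where values are named below, none passed adjustment over all genes. Without sh-Gpc4 library 3 and sh-Gpc2 library 4, the sign over sh-NT turned for Fstl1, Junb, Tcf12 and Zeb2 in sh-Gpc4 and for Chrdl1, Tcf3, Tcf12 and Tob1 in sh-Gpc2. In sh-Gpc4 over sh-Gpc2 it turned for Grem1, Skil, Tcf12 and Tgfbr1. In sh-Gpc4 over sh-NT, Bmp7 was then at -0.32, Chrd at -0.37 and Tob1 at -0.34.

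Extracellular antagonists and modulators, the class of Nog, had 9 of 11 tested genes negative in sh-Gpc4 against sh-NT (median -0.34) and 6 of 11 in sh-Gpc2 against sh-NT (median -0.09). All 11 were negative in sh-Gpc4 against sh-Gpc2 (median -0.24), where 49.5% of all genes were positive. With sh-Gpc4 library 3 and sh-Gpc2 library 4 left out, Grem1 turned there from -0.24 to 0.25. Twsg1, whose protein binds BMPs together with chordin, was at 74.0 ± 6.12 CPM in sh-NT against 58.5 ± 5.92 in sh-Gpc4, a log2 fold change of -0.34 (SE 0.12). Chrdl1, a chordin-like BMP antagonist, was at 2.10 CPM in sh-NT, 1.504 in sh-Gpc4 and 2.24 in sh-Gpc2 (-0.48 in sh-Gpc4 over sh-NT, SE 0.21). Chordin itself, Chrd, had log2 fold changes over sh-NT of -0.59 in sh-Gpc4 and -0.30 in sh-Gpc2 (-0.37 and -0.11 without both libraries). Grem1 (gremlin, another secreted antagonist) had 0.14 and 0.38 (0.28 and 0.03 without both libraries), and Fstl1, the most abundant of the class, -0.04 and 0.08.

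Among ligands, 9 of 13 were negative in sh-Gpc4 against sh-NT (median -0.22) and 6 of 13 in sh-Gpc2 against sh-NT (median 0.01). Gdf1, a ligand of the activin and nodal branch, was at 30.5 ± 0.896 CPM in sh-NT, 19.2 ± 7.13 in sh-Gpc4 and 24.1 ± 9.01 in sh-Gpc2. Its lowest values, 11.1 and 13.8 CPM, were in sh-Gpc4 library 3 and sh-Gpc2 library 4, the libraries at the end of the first component. Without both, the log2 fold change of Gdf1 over sh-NT went from -0.67 to -0.41 in sh-Gpc4 and from -0.34 to -0.0783 in sh-Gpc2. Bmp7 had log2 fold changes over sh-NT of -0.57 in sh-Gpc4 and 0.15 in sh-Gpc2. Bmp2, at 0.505 to 0.844 CPM as group means, had 0.42 and 0.74. Tgfb3 had -0.65 and -0.39 (-0.37 and -0.14 without both libraries), and Tgfb2 -0.22 and 0.01 (-0.12 and 0.09 without both).

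Receptors and co-receptors were negative for 9 of 14 in each comparison with sh-NT (median -0.12 in sh-Gpc4, -0.06 in sh-Gpc2). Acvr1, a type I BMP receptor, was at 15.9 ± 0.719 CPM in sh-NT against 20.9 ± 1.23 in sh-Gpc4 with no overlap, and at 18.7 ± 2.64 in sh-Gpc2. The log2 fold change of Acvr1 in sh-Gpc4 over sh-NT was 0.40 (SE 0.13, edgeR adjusted p = 0.488). Rgma, a BMP co-receptor, was at 35.7 ± 5.998, 15.6 ± 9.93 and 25.2 ± 14.7 CPM in sh-NT, sh-Gpc4 and sh-Gpc2. Its lowest values, 6.97 and 8.69 CPM, were again in sh-Gpc4 library 3 and sh-Gpc2 library 4, and without both its log2 fold change over sh-NT went from -1.20 to -0.86 in sh-Gpc4 and from -0.50 to -0.11 in sh-Gpc2. Acvr2a, a type II receptor, had -0.18 and -0.16 in sh-Gpc4 and sh-Gpc2 over sh-NT, and Tgfbr1 -0.11 in both.

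**Figure D5:**
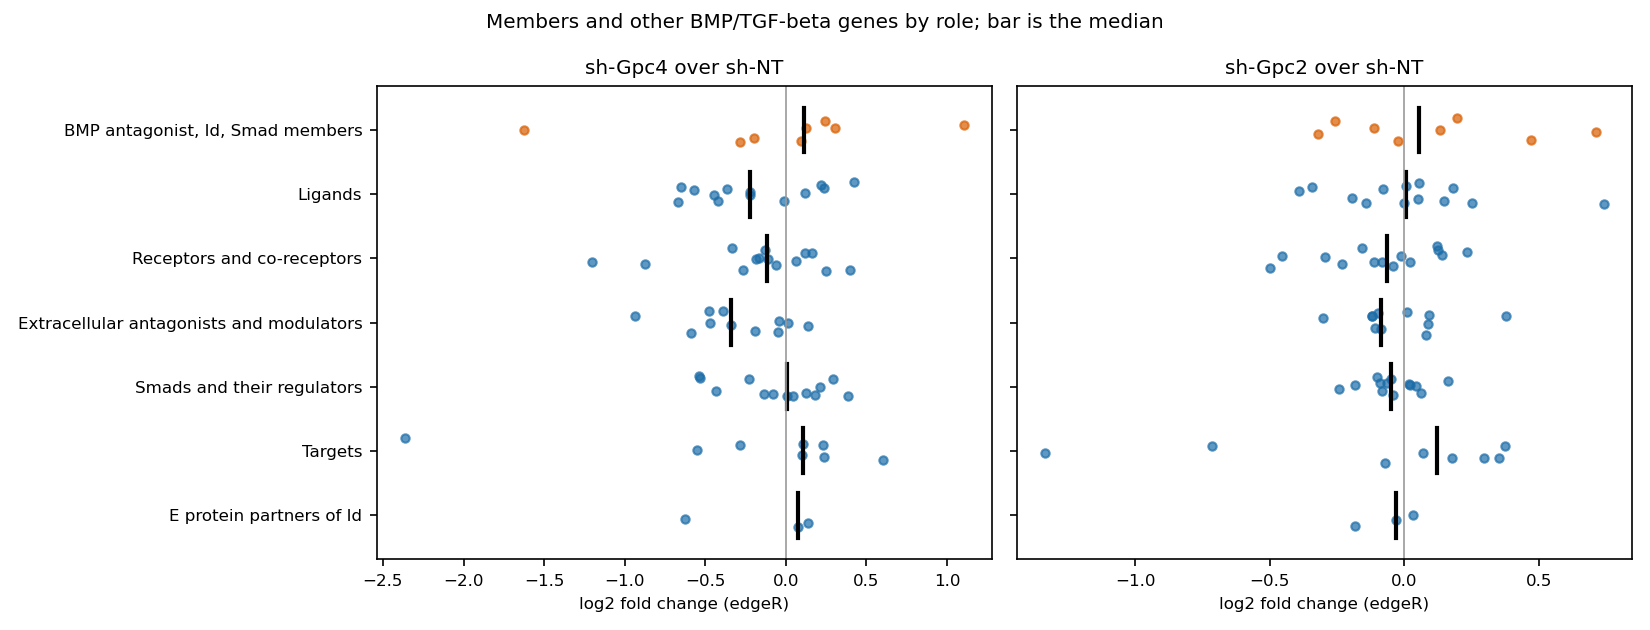
Log2 fold change from edgeR (x axes) of the tested members and of the 62 tested genes of the pathway list, by role, in sh-Gpc4 over sh-NT and sh-Gpc2 over sh-NT, with 1 point per gene and a bar at the median of the class. Extracellular antagonists have a median of -0.34 in sh-Gpc4 and -0.09 in sh-Gpc2.

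Smads and their regulators were positive for 7 and negative for 6 in sh-Gpc4 against sh-NT (median 0.01), and 5 and 8 in sh-Gpc2 against sh-NT (median -0.05). Smad5, which carries the BMP signal, was at 147 ± 7.82 CPM in sh-NT, 109 ± 19.6 in sh-Gpc4 and 124 ± 28.6 in sh-Gpc2 (log2 fold changes of -0.44, SE 0.18, and -0.24, or -0.33 and -0.0784 without sh-Gpc4 library 3 and sh-Gpc2 library 4). Tob1, an antiproliferative protein that binds Smads, had -0.54 and -0.09 (-0.34 and 0.09 without both libraries). Skil (SnoN, a Smad corepressor) had -0.23 and -0.18, and Zeb2 (a Smad-interacting repressor) 0.05 and -0.10.

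Other targets were positive for 5 of 8 in both comparisons with sh-NT (medians 0.10 and 0.12). Tgif1, a corepressor of Smads, was at 17.2 ± 0.577 CPM in sh-NT, 20.3 ± 0.560 in sh-Gpc4 and 21.97 ± 1.39 in sh-Gpc2, with all 6 knockdown libraries above sh-NT. Its log2 fold changes over sh-NT were 0.24 (SE 0.10) and 0.35 (SE 0.10, edgeR adjusted p = 0.968). Hey1, a helix-loop-helix repressor that Notch also induces, was at 46.1 ± 2.51, 54.0 ± 4.66 and 59.7 ± 14.0 CPM, again with all 6 knockdown libraries above sh-NT (0.23 and 0.37). Junb had -0.28 and 0.18 (0.03 and 0.47 without sh-Gpc4 library 3 and sh-Gpc2 library 4). Dlx5, also a marker of ventral forebrain, was at 3.27 CPM in sh-NT library 1 and at 0.0506 to 0.530 CPM in the other 8 libraries.

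The E proteins that Id proteins bind differed among themselves. Tcf3 was at 74.4 ± 6.79 CPM in sh-NT against 48.3 ± 7.17 in sh-Gpc4 without overlap, and at 65.5 ± 18.4 in sh-Gpc2. The log2 fold change of Tcf3 in sh-Gpc4 over sh-NT was -0.62 (SE 0.20, edgeR adjusted p = 0.488). Its lowest values were 40.6 CPM in sh-Gpc4 library 3 and 44.6 CPM in sh-Gpc2 library 4. Without both, the value for Tcf3 was -0.52 in sh-Gpc4 and went from -0.18 to 0.0161 in sh-Gpc2. Tcf4, the most abundant, had log2 fold changes of 0.14 and -0.03, and Tcf12 of 0.07 and 0.03.

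The genes whose pattern over the 9 libraries was most like that of Nog were Adgrb1, Sap30, Ring1, Rab5if and Rab24. Likeness was the root mean square difference in log2 CPM after each gene was centred on its own mean, which was 0.157 to 0.206 for these genes, where Nog itself varied by 0.83 about its mean. All were more abundant than Nog, as Adgrb1 at 7.45 ± 1.38 CPM in sh-NT, 2.70 ± 0.936 in sh-Gpc4 and 5.53 ± 2.96 in sh-Gpc2. For Id1, which varied by 0.22 about its mean, the nearest were Hey1, Hbegf, Hspa2, Coch and Stard4, at 0.110 to 0.120. Hbegf, which encodes a growth factor of the EGF family, was at 4.67 ± 0.334, 5.44 ± 0.436 and 5.82 ± 0.329 CPM in the same groups.

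Markers of the labelled cells were present in every library. Intermediate progenitor markers summed to 344 to 352 CPM in sh-NT, 346 to 370 in sh-Gpc4 and 351 to 369 in sh-Gpc2, and excitatory neuron markers to 3542 to 4178, 3474 to 4051 and 3370 to 3813 CPM. Radial glia sums ran from 1577 to 2077 CPM in sh-Gpc4 and 1872 to 2596 in sh-Gpc2, with 2 and 6 of 7 genes higher on average than in sh-NT. Mural markers summed to 21.3 to 28.9 CPM in sh-NT, 10.3 to 14.48 in sh-Gpc4 and 9.34 to 23.0 in sh-Gpc2, with 0 of 7 genes higher than in sh-NT in both. Oligodendrocyte precursor markers summed to 5.41 to 16.3, 1.27 to 4.91 and 4.64 to 14.47 CPM, with 0 and 1 of 5 genes higher. As with Nog, the sh-Gpc4 libraries lay below all sh-NT libraries in both of these sums, and their part in the Nog values was not tested.

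Endothelial markers, from cells that also express Id1 and Id3, summed to 59.0 to 71.8 CPM in sh-NT, 63.5 to 71.7 in sh-Gpc4 and 63.6 to 72.8 in sh-Gpc2, with 2 of 10 genes higher in each knockdown group. Most of that sum was Ramp2, at 54.9 to 65.8 CPM over the 9 libraries. The other 9 genes together held 4.17 to 10.5 CPM in sh-NT, 5.53 to 8.03 in sh-Gpc4 and 5.79 to 7.93 in sh-Gpc2. Of their defining genes, Cldn5 averaged 0.642, 0.170 and 0.110 CPM in sh-NT, sh-Gpc4 and sh-Gpc2 and was at 0 in at least 1 library, Cdh5 averaged 0.553, 0.208 and 0.298, and Pecam1 3.73, 4.59 and 5.04. Meningeal markers summed to 2.97 to 4.69, 2.505 to 13.3 and 2.20 to 5.52 CPM in the same groups, the highest in sh-Gpc4 library 1 with Col1a1 at 7.93 CPM. Markers of choroid plexus and cortical hem, known sources of BMP ligands, summed to 11.5 to 16.2, 14.9 to 20.7 and 12.3 to 15.3 CPM. Their defining genes were at or near 0, with Ttr and Wnt3a at no more than 0.0200 CPM and Lmx1a at no more than 0.186 CPM in any library. Erythroid markers summed to 44.1 to 100.7 CPM and Cajal-Retzius markers to 3.78 to 6.69 CPM over the 9 libraries. Ventral markers stood at 49.9 CPM in sh-NT library 1 and at 16.6 to 22.8 CPM in the other 8.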

How the data were processed

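The authors deposited raw read counts per gene for 9 RNA-seq libraries. Per the labels' protocols, RNA of sorted cells came from a small-sample kit, and a low-input kit made the libraries. FeatureCounts of Subread and the builds GRCm38 and mm10 are named per the submitters' processing notes. The aligner, annotation release, versions and use of strand were not given in the sources used here. Symbols came from GENCODE M21, which matched 51486 of 78275 IDs (65.8%), with 96.8% to 97.0% of each library's reads.

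Column names give each library's group; their numbers differ from those in the sample titles. Chi-square per degree of freedom between libraries of a group was 8.56 to 93.4, so none was treated as a duplicate. In R 4.3.3, edgeR 4.0.16 (quasi-likelihood test, TMM, default filter on low counts, 1 coefficient per group, all 9 libraries) tested 27773 genes. Benjamini-Hochberg adjustment ran over all of them, with a threshold of 0.05 in each of 3 comparisons. SE is the log2 fold change over the square root of F, and 95% intervals rest on its degrees of freedom (median 9.50). CPM are TMM-scaled, and levels per kb use the summed exon length in M21. Principal components were taken over genes whose mean log2 CPM exceeded 3. The steps were tested on simulated counts drawn independently for each gene and library. These lack the first principal component of the real libraries, so they do not show how the tests behave on these data.

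Members and lists were chosen with earlier results of these data known. Named are all members, the defining marker genes, Gpc4 and Gpc2. Of each pathway class the text names up to 2 genes with the smallest p in each comparison with sh-NT, the most abundant gene, and all 3 E proteins. For likeness it names the 5 nearest named genes with a mean of at least 1 CPM, leaving out predicted genes. Alternatives were DESeq2 size factors, DESeq2 1.42.0, limma 3.58.1 voom with sample weights, no filter, more than 5 CPM in at least 3 libraries, only the groups compared, each library left out, and a replicate block. Removal of a GC trend (spline with 6 degrees of freedom) and a fit without sh-Gpc4 library 3 and sh-Gpc2 library 4 were added once the data had been seen, as were marker sums without Hes5 or Ramp2. Another marker of the microglia list is not reported here and was left out of its sums.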

Additional observations from a re-analysis of the deposited data

How the results depend on the processing

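For the 8 tested genes in 3 comparisons, 354 alternative values were computed, of which 339 kept the sign and the side of the threshold. DESeq2 called 45 genes and 1 member (Nog, -1.62, adjusted p = 0.0454) in sh-Gpc4 against sh-NT, where edgeR called 0; over the alternatives the adjusted p of Nog there ran from 0.0454 to 0.963 and its log2 fold change from -1.82 to -1.31. DESeq2 and limma voom had 2959 and 9011 genes with an unadjusted p under 0.05 there. With the GC trend removed, Smad6 in sh-Gpc4 over sh-NT turned to 0.21 and Smad7 in sh-Gpc2 over sh-NT to 0.10.

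The sign also turned when libraries were left out. In sh-Gpc2 over sh-NT, Id2 ran from -0.31 to 0.00647, with 0.00257 without sh-Gpc2 library 2 and 0.00647 without sh-NT library 4. Smad7 ran from -0.16 to 0.16, the highest without sh-Gpc2 library 2, with 0.0125 without sh-NT library 1 and 0.00587 without sh-NT library 4. Nog ran from -0.55 to 0.10, the highest without sh-Gpc2 library 4, and was 0.0802 without sh-Gpc4 library 3 and sh-Gpc2 library 4. In sh-Gpc4 over sh-Gpc2, Smad7 ran from -0.0376 (without sh-Gpc2 library 2) to 0.29, and Id3 from -0.23 (without sh-Gpc4 library 4) to 0.77. The cause was not tested for any of these.

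With the column number as a replicate block, Id2 (-0.0649) and Smad7 (-0.12) in sh-Gpc4 over sh-NT and Smad7 (-0.0675) in sh-Gpc4 over sh-Gpc2 turned negative. The block called 0 genes in each comparison in edgeR, and Nog in sh-Gpc4 over sh-NT was -1.33 (adjusted p = 0.963). Correlations of same-numbered libraries' deviations ran from -0.10 to 0.68, above 0.1 in 4 of 7 pairs and below it in 3, so the numbers were not taken to pair the libraries. Whether they mark a shared batch is not given in the labels. Nog and Smad6 were not tested with more than 5 CPM required, and no count was made with the GC trend removed, since only 22126 of 27773 genes have a GC value. Depth limits Bmp4 and Smad9, which had at most 7 and 16 reads in a library, and Nog and Smad6 rest on 34 to 146 and 63 to 124 reads.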
